A study of Homo sapiens with 6 samples.

Results

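A set of 10 genes of amino acid stress and serine or asparagine synthesis were followed in BL2 cells after electroporation with siRNA against LEF1. They were ATF4, ATF5, DDIT3, TRIB3, ASNS, PHGDH, PSAT1, PSPH, SHMT2 and MTHFD2. The 10 genes stood for 21 probe sets, out of 19775 genes with 41091 probe sets that the platform annotation assigned to 1 gene alone. They were chosen by name, with the LEF1 siRNA minus scrambled siRNA differences of these same arrays already known. For that reason the differences of these 10 genes are given as a description and carry no test. A further probe set that named PHGDH beside other genes was not used.

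BL2 is an established human Burkitt lymphoma line, grown in complete RPMI medium. Each of 3 labelled batches gave 1 array of cells that received a pool of 4 siRNAs against LEF1 (LEF siRNA in the labels) and 1 array of cells that received scrambled siRNA (scrb siRNA). Both groups were electroporated with siRNA, and the time after electroporation is not given in the sources used here. Each array gave 1 log2 expression value per probe set, read mainly from the 3' ends of transcripts, and 1 unit is a 2-fold step in signal. Errors of group means are SDs over 3 arrays, and errors of differences are SDs over the 3 batch differences.

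ATF4 is a bZIP transcription factor whose protein is made when the kinases of the integrated stress response, among them the amino acid sensor GCN2, slow general translation through eIF2. It switches on genes that make, import and charge amino acids, and its close relative ATF5 is controlled in much the same way at translation. Serine is built from a glycolytic intermediate by PHGDH, PSAT1 and PSPH in turn, and the mitochondrial enzymes SHMT2 and MTHFD2 pass its carbon on to folate. Proliferating lymphoma cells draw on this route for nucleotide synthesis, and arrays measure only the transcripts, not the translation of ATF4.

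LEF1 itself was lower with LEF1 siRNA in each batch. In these bulk samples fewer cells with a transcript and less of it per cell cannot be told apart. Its brightest probe set read 8.21, 8.09 and 8.67 on the LEF1 siRNA arrays of batches 1, 2 and 3, against 11.09, 10.58 and 11.45 on the scrambled siRNA arrays. The difference was -2.71 (limma adjusted p = 0.0213 without block and 7.46e-11 with batch as block). Its other probe sets differed by -1.84 (limma adjusted p = 0.00418 without block) and -0.29 (0.284 without block and 0.00695 with batch as block). Of 6 B cell markers and 5 germinal-centre and Burkitt markers, all 11 lay above the median level of 6.91 of all probe sets, from 9.09 to 13.64. T, NK and myeloid markers lay between 6.35 and 7.30. Epithelial and stromal markers lay between 6.14 and 8.04. Array medians ran from 6.89 to 6.96. The 3' minus 5' signal of the beta-actin control was 0.183, 0.297 and 0.221 with LEF1 siRNA, against 0.0720, -0.0284 and 0.0967 with scrambled siRNA, and its part in the differences below was not tested. The same measure of the GAPDH control was 0.0385, 0.0608 and 0.0993 with LEF1 siRNA, against 0.0372, 0.0618 and 0.0986 with scrambled siRNA.

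The genes of the ATF4 axis were mostly lower with LEF1 siRNA, by modest amounts. At their brightest probe sets 9 of the 10 genes had a negative mean difference, and their median difference was -0.31, beside 0.02 over all 19775 genes at their brightest probe set and 0.001 over the 2615 genes with a level above 10. By batch that median was -0.27, -0.31 and -0.32, in batches 1, 2 and 3. Of the 21 probe sets 20 were lower on average, 15 were lower in all 3 batches and 9 had no overlap between the groups. Over all 54613 probe sets tested, 14.4% were lower in all 3 batches and 4.59% were lower with no overlap. These counts rest on the comparison that chose the genes and are set beside the background only to show its size. With limma, 0.0183% of all probe sets passed without block in either direction, and with batch as block 1.51% of all probe sets and 2.98% of those above the median level were called lower. No such calls are given for the 10 genes, whose choice fixed them.

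**Figure D1:**
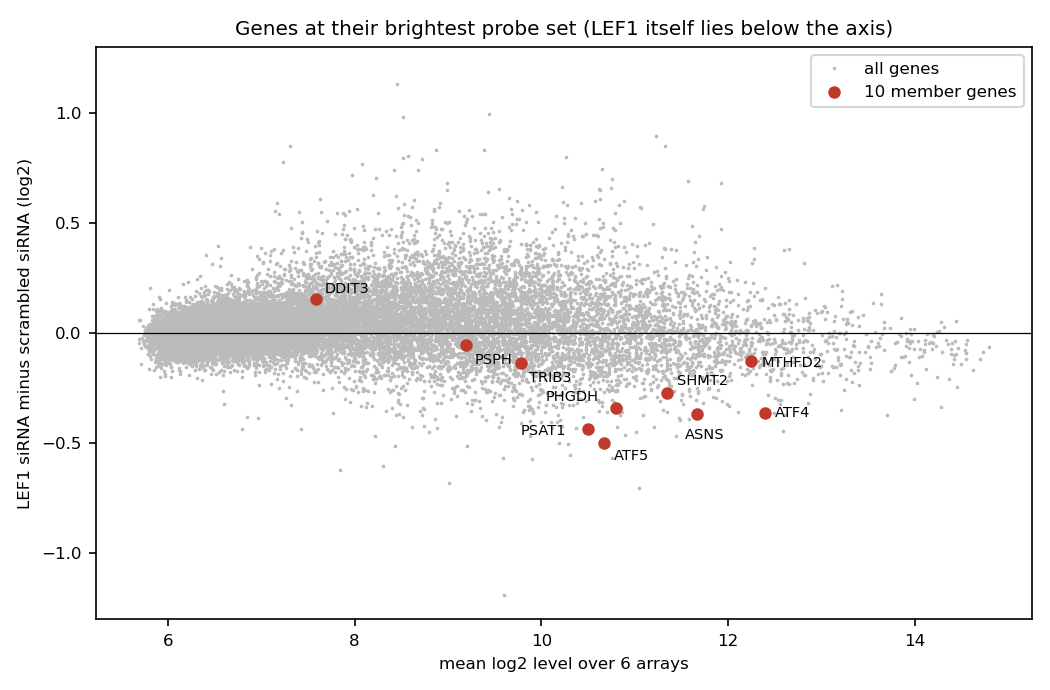
Mean log2 level over 6 arrays (horizontal axis) against the LEF1 siRNA minus scrambled siRNA difference in log2 units (vertical axis) for 19775 genes at their brightest probe set, with the 10 described genes in red. Of these, 9 lie below 0 and DDIT3 above it, and LEF1, at -2.71, is outside the vertical range.

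Among the transcription factors, ATF4 had 1 probe set, and it was the brightest of the 21. It read 12.15, 12.11 and 12.38 on the LEF1 siRNA arrays of batches 1, 2 and 3, against 12.50, 12.48 and 12.75 on the scrambled siRNA arrays. Every LEF1 siRNA array lay below every scrambled siRNA array, and both arrays of batch 3 were the highest of their group. The difference was -0.36 ± 0.013, which is 22.3% less signal, and it was almost the same size in the 3 batches. The reference genome lists 4 pseudogenes named after ATF4, whose transcripts this probe set may share.

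The RefSeq window of ATF4, from 250 bases before to 50 bases after the gene start, is shown because the axis is named after ATF4. Whether the other genes answered to ATF4 in these cells was not tested. It lies at chr22:39520309-39520608 (GRCh38.p14, plus strand). The capitals mark an E-box, CACGTG, 82 bases before the start, the kind of site bound by MYC, MAX and other helix-loop-helix factors.
ATF4: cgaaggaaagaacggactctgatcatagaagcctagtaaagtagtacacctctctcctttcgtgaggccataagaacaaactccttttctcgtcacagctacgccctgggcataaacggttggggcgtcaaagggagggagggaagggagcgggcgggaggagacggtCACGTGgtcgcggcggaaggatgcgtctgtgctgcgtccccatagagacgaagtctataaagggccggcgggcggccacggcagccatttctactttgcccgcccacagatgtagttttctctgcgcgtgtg

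ATF5 had the most negative differences of the 10 genes, and they varied more between batches than those of ATF4. Its brightest probe set read 10.53, 10.21 and 10.52 with LEF1 siRNA, against 10.83, 10.90 and 11.03 with scrambled siRNA. The groups did not overlap, and the difference was -0.50 ± 0.20, or 29.3% less signal. A second probe set read 9.65, 9.41 and 9.16 with LEF1 siRNA, against 10.12, 10.84 and 9.97 with scrambled siRNA. There the mean difference was -0.90 ± 0.49, and batch 2 alone reached -1.43, where the scrambled siRNA array was higher than in the other batches. Dimmer probe sets, at mean levels of 8.46 and 7.49, differed by only -0.08 and -0.07. All 4 probe sets of ATF5 were lower in each batch.

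DDIT3, which encodes the stress-induced bZIP factor CHOP, was the exception. It read 7.87, 7.65 and 7.49 with LEF1 siRNA, against 7.81, 7.34 and 7.39 with scrambled siRNA. The groups overlapped, and the difference of 0.15 ± 0.14 was positive in each batch and about as large as its spread over batches. The highest pair of arrays was that of batch 1. TRIB3, a pseudokinase induced by ATF4 and CHOP that restrains ATF4, read 9.59, 9.69 and 9.86 with LEF1 siRNA, against 9.72, 9.78 and 10.05 with scrambled siRNA. Its groups overlapped because batch 3 was high in both, while each batch difference was negative, at -0.14 ± 0.05 on average. A dimmer TRIB3 probe set differed by -0.18 ± 0.13.

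**Figure D2:**
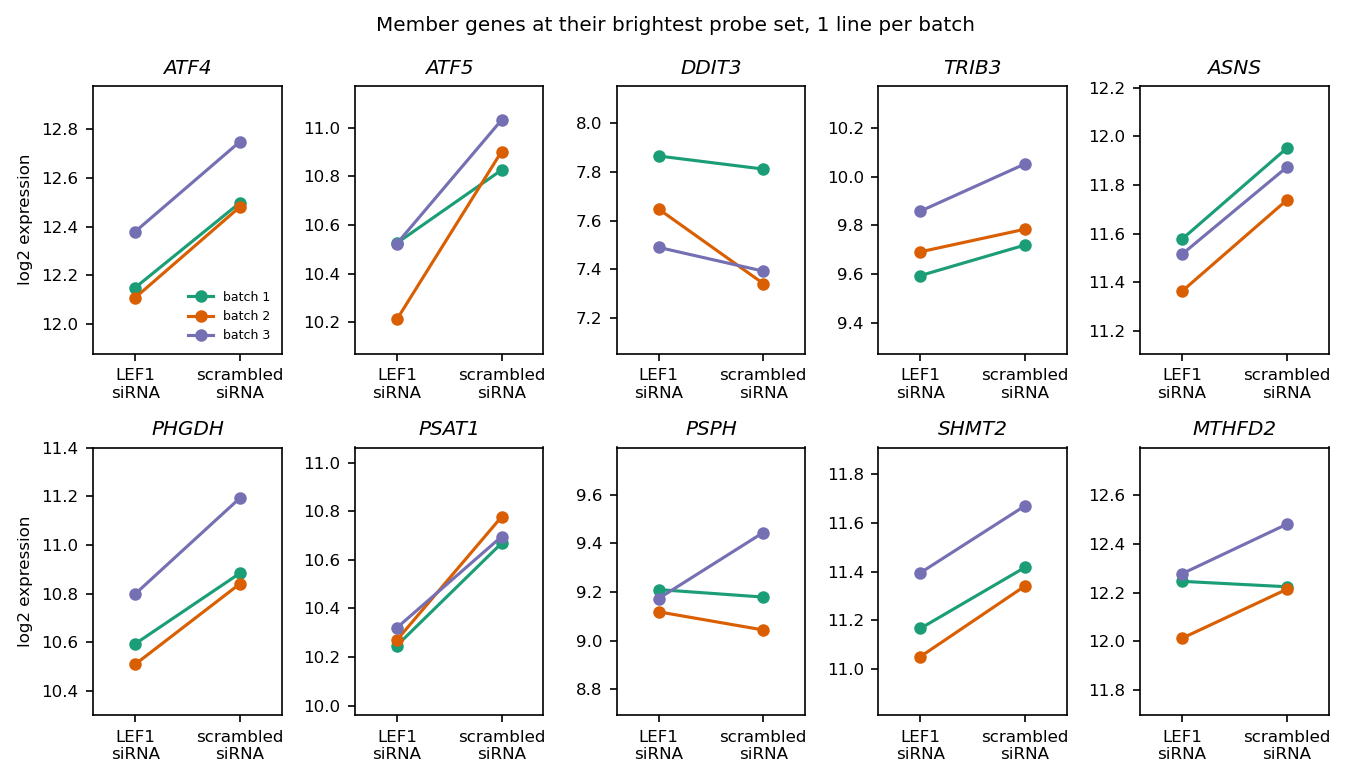
Log2 expression of the 10 genes at their brightest probe set (vertical axes, each spanning 1.1 log2 units) on the LEF1 siRNA and the scrambled siRNA array of each batch, joined by a line per batch. The lines of ATF4, ASNS, PHGDH, PSAT1 and SHMT2 run nearly parallel, those of PSPH and MTHFD2 do not, and those of DDIT3 slope the other way.

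Asparagine synthetase, ASNS, converts aspartate to asparagine and is a classical target of ATF4. Its bright probe set read 11.58, 11.36 and 11.52 with LEF1 siRNA, against 11.95, 11.74 and 11.87 with scrambled siRNA. The groups did not overlap. Its batch differences were -0.37, -0.37 and -0.36, so that the mean difference of -0.37 ± 0.010 had the smallest spread over batches of the 21 probe sets, at 22.6% less signal. A second ASNS probe set, at a mean level of 6.12, lay below the median level and differed by -0.10 ± 0.09. The reference genome lists 5 pseudogenes named after ASNS.

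The RefSeq window of ASNS is shown because it holds the composite element that ATF4 binds together with C/EBP factors. It lies at chr7:97872359-97872658 (GRCh38.p14, minus strand), and the capitals mark the match to TGATGNAA, 68 bases before the gene start. Of the 2 windows of ASNS, the one shown held the element and the other did not.
ASNS: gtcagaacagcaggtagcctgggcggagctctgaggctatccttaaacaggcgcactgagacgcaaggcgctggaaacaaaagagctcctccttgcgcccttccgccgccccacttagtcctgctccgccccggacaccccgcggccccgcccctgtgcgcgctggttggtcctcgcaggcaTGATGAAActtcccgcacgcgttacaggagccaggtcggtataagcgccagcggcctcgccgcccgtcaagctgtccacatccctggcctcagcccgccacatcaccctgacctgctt

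The 3 enzymes of serine synthesis differed from each other. PHGDH, which oxidises 3-phosphoglycerate in the first step, read 10.59, 10.51 and 10.80 with LEF1 siRNA, against 10.88, 10.84 and 11.19 with scrambled siRNA. The groups did not overlap, and the difference was -0.34 ± 0.05, or 20.9% less signal. PSAT1, the aminotransferase of the second step, read 10.25, 10.27 and 10.32 with LEF1 siRNA at its brightest probe set, against 10.67, 10.78 and 10.70 with scrambled siRNA. Within each group the PSAT1 arrays lay close together, and the groups did not overlap. That probe set differed by -0.43 ± 0.07, or 26.0% less signal. A second PSAT1 probe set read 9.21, 9.25 and 9.30 with LEF1 siRNA, against 9.82, 9.98 and 9.90 with scrambled siRNA. Its difference was -0.65 ± 0.08, or 36.2% less signal.

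PSPH, the phosphatase of the last step, showed no common direction. Its brightest probe set read 9.21, 9.12 and 9.17 with LEF1 siRNA, against 9.18, 9.04 and 9.44 with scrambled siRNA. The groups overlapped, and the mean difference of -0.06 ± 0.19 came from batch 3 alone, at -0.27, while batches 1 and 2 gave 0.03 and 0.07. A dimmer probe set gave 0.05, -0.56 and -0.59 in batches 1, 2 and 3, with overlap between the groups. The dimmest, below the median level, gave a mean of -0.001. The reference genome lists a pseudogene named after PSPH and 4 named after PSAT1.

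The window of PSAT1 is shown because PSAT1 had the largest non-overlapping difference of the serine enzymes. It lies at chr9:78296875-78297174 (GRCh38.p14, plus strand), and it has no capitals because none of the searched motifs occurred in these letters.
PSAT1: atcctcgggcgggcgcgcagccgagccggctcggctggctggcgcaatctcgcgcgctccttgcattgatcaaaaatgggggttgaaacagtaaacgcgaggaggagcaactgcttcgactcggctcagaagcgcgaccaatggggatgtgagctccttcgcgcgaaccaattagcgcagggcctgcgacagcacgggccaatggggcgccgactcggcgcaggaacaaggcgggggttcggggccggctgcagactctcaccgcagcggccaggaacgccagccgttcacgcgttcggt

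In the mitochondrial folate branch, SHMT2, which splits serine into glycine and a folate-bound carbon unit, had 3 probe sets. The brightest read 11.17, 11.05 and 11.40 with LEF1 siRNA, against 11.42, 11.34 and 11.67 with scrambled siRNA. The groups overlapped by a narrow margin, since the LEF1 siRNA array of batch 3 lay above the scrambled siRNA array of batch 2, yet the batch differences were all close to -0.27 ± 0.020. The second read 10.87, 10.78 and 10.96 with LEF1 siRNA, against 11.16, 11.00 and 11.38 with scrambled siRNA, without overlap, and differed by -0.31 ± 0.10. The third differed by -0.17 ± 0.06. MTHFD2, the dehydrogenase and cyclohydrolase of the next step, read 12.25, 12.01 and 12.28 with LEF1 siRNA, against 12.22, 12.21 and 12.48 with scrambled siRNA. Its groups overlapped, and batch 1 gave 0.02 while batches 2 and 3 each gave -0.20. Its dimmer probe set gave 0.04, -0.51 and -0.25 in batches 1, 2 and 3. The reference genome lists 7 pseudogenes named after MTHFD2.

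**Figure D3:**
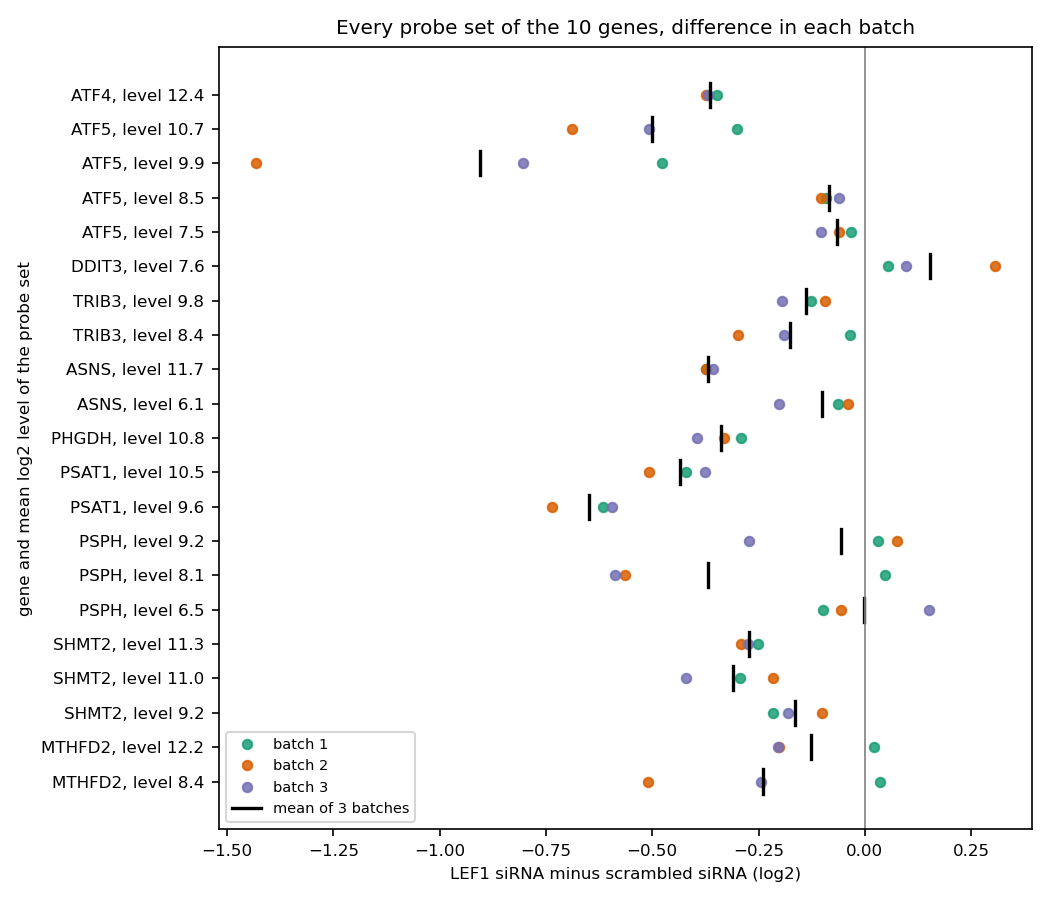
LEF1 siRNA minus scrambled siRNA difference in log2 units (horizontal axis) of the 21 probe sets, named by gene and mean log2 level, with a point for each batch and a bar for their mean. The points of ATF4 and of the bright ASNS probe set fall almost on each other, and those of the second ATF5 probe set spread from -1.43 to -0.48.

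The levels of some of these genes differed between batches, which is a measure apart from the siRNA difference that chose them. At the brightest probe sets, 7 of the 10 genes had their highest batch level in batch 3, taken as the mean of the 2 arrays of a batch. SHMT2 lay 0.34 higher in batch 3 than in batch 2, PHGDH 0.32, ATF4 0.27 and TRIB3 0.22. DDIT3 ran the other way, and its batch 3 level differed from that of batch 1 by -0.40. PSAT1 and ASNS had no such peak in batch 3, and the batch 3 level of PSAT1 differed from that of batch 2 by -0.02. A limma F-test of the batch term, added after the values were seen and adjusted over all probe sets, passed for 7 of the 21 probe sets, beside 13.7% of all probe sets and 24.4% of those above the median level, where 19 of the 21 lie. The count is close to that background and says nothing particular to these genes. The probe sets that passed were DDIT3 (adjusted p = 0.00622), SHMT2 (0.011 and 0.0489), PHGDH (0.0137), TRIB3 (0.023), ATF4 (0.0263) and the second ATF5 probe set (0.0488). The brightest probe sets of MTHFD2 (0.0758), ASNS (0.108), PSPH (0.2), ATF5 (0.226) and PSAT1 (0.813) did not pass. What a batch stands for beyond its number is not given in the labels.

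**Figure D4:**
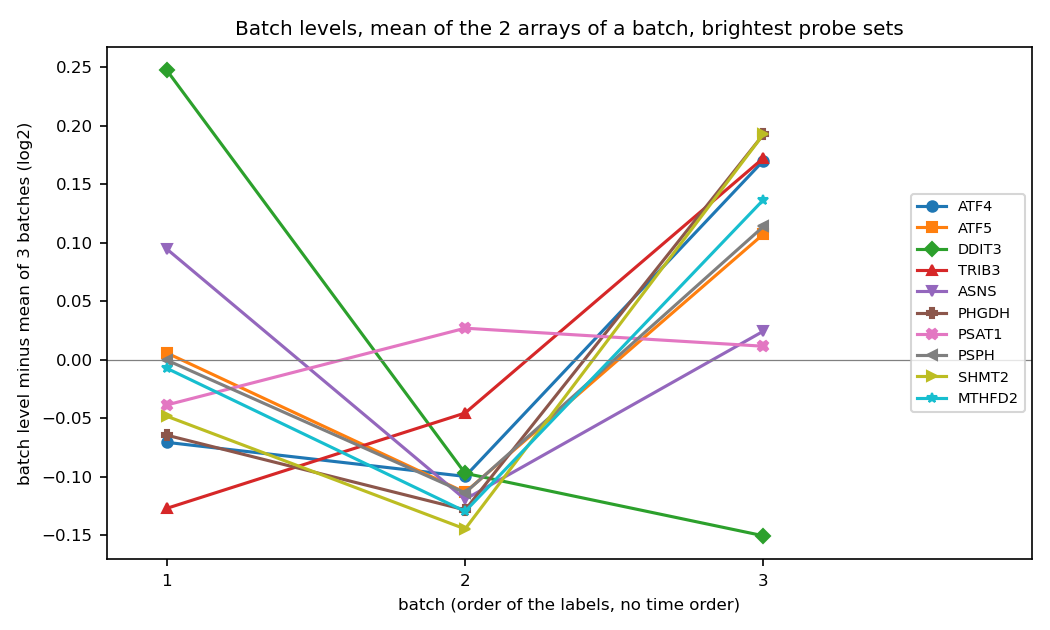
Batch level of each of the 10 genes at its brightest probe set, as the mean of the 2 arrays of a batch minus the mean of the 3 batches in log2 units (vertical axis), for batches 1 to 3 (horizontal axis); lines join the values of 1 gene and imply no order in time. ATF4, PHGDH, SHMT2 and TRIB3 peak in batch 3, and DDIT3 in batch 1.

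Other genes of the pathway were taken from 7 lists of 109 genes, of which 98 were measured, and unlike the 10 genes above they were tested, although these lists too were drawn up with earlier results known. Without block, limma called 0 of the 98 at their brightest probe set, beside 0.0253% of all genes, and 18 had an unadjusted p under 0.05. With batch as block, 13 were called lower and 6 higher, beside 1.70% of all genes called lower and 6.73% called higher. The directions and adjusted p-values that follow are those of limma with batch as block, and for each gene the adjusted p without block stands beside it.

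The other known ATF4 target genes formed the longest of these lists. Of 27 measured, 9 fell and 0 rose, and their median difference was -0.19. In 7 of the 27 the groups did not overlap and were lower with LEF1 siRNA, beside 4.59% of all 54613 probe sets. That share covers probe sets of all levels, while 23 of the 27 genes lay above the median level. Amino acid transporter genes had the smallest p-values, but not all of them were called. SLC6A9 differed by -0.20, SLC7A1 by -0.07 and SLC38A2 by 0.11 (limma adjusted p = 0.0782, 0.686 and 0.383, and 0.686, 0.969 and 0.89 without block). SLC1A4, a carrier of serine and other neutral amino acids, read 9.14, 9.08 and 9.42 with LEF1 siRNA, against 9.41, 9.64 and 9.79 with scrambled siRNA, and fell by 0.40 (limma adjusted p = 0.00229, and 0.38 without block). A second SLC1A4 probe set fell by 0.43 and the dimmest differed by -0.03. SLC3A2, the heavy chain that carries several amino acid transporters to the membrane, read 9.75, 9.61 and 9.76 with LEF1 siRNA, against values between 9.94 and 10.20 with scrambled siRNA. It fell by 0.34 without overlap of the groups (limma adjusted p = 0.00388, and 0.244 without block). SLC7A5, the light chain of the leucine transporter, read 11.07, 11.11 and 11.31 with LEF1 siRNA, against 11.28, 11.49 and 11.81 with scrambled siRNA, and fell by 0.36 (limma adjusted p = 0.00413, and 0.505 without block). SLC1A5, a glutamine carrier, read 9.51, 9.58 and 9.50 with LEF1 siRNA, against 9.68, 9.92 and 9.99 with scrambled siRNA, and fell by 0.33 (limma adjusted p = 0.00799, and 0.277 without block). The other 5 that fell were CHAC1, CEBPB, SLC7A11, CBS and VEGFA, named here only to complete the count. SLC1A4, SLC3A2, SLC7A5 and SLC1A5 each passed in every scaling, filter, eBayes setting and left-out batch run with batch as block. The count was 6 without batch 2, 14 after quantile normalization or cyclic loess and 15 when arrays were scaled to the poly-A spike-ins, with 0 higher in each. The background moved the same way. Of all probe sets called, 75.2% were higher as deposited, 56.1% after quantile normalization, 60.1% after cyclic loess and 11.0% with the spike-ins. The spike-in scaling called 8797 probe sets, against 3328 as deposited, and this also stands behind the spike-in counts of the lists below.

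Transfer RNA synthetases known as ATF4 targets were also lower in part. Of 8 measured, 3 fell and 0 rose, beside 1.70% of all genes called lower, and the median difference was -0.17. SARS1, which charges tRNA with serine, fell by 0.30, GARS1, for glycine, by 0.31 and TARS1, for threonine, by 0.24 (limma adjusted p = 0.00651, 0.00614 and 0.0383, and 0.42, 0.668 and 0.459 without block). TARS1 read 11.27, 11.26 and 11.29 with LEF1 siRNA, against 11.45, 11.40 and 11.69 with scrambled siRNA. TARS1 was not called without batch 3, where it differed by -0.16 (limma adjusted p = 0.264), nor with an intensity trend and robust eBayes (0.0758). Without batch 2, SARS1, GARS1 and TARS1 had limma adjusted p-values of 0.0635, 0.0526 and 0.0545. Leaving out batch 2 took the count to 0, and scaling to the spike-ins took it to 6, all lower.

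The upstream arm was mixed. Of 16 genes of the eIF2 kinases, eIF2, eIF2B and their brakes, 2 rose and 1 fell, with a median difference of 0.01. Of all genes, 6.73% were called higher and 1.70% lower. These shares cover genes of all levels, while 15 of the 16 lay above the median level. Counts this small say nothing particular to this list. EIF2AK4, which encodes the amino acid sensing kinase GCN2, read 10.01, 9.97 and 10.13 with LEF1 siRNA, against 9.52, 9.21 and 9.59 with scrambled siRNA. It rose by 0.60 without overlap of the groups (limma adjusted p = 0.000167, and 0.139 without block), the largest difference of the 98 genes in either direction, while its dimmer probe set, below the median level, differed by -0.003. EIF2S3, the gamma subunit of eIF2, rose by 0.32 and EIF2S2, the beta subunit, fell by 0.23 (limma adjusted p = 0.0194 and 0.0313, and 0.596 and 0.679 without block). The third EIF2S3 probe set differed by -0.23. EIF2S3 was not called without batch 2 (limma adjusted p = 0.185) or scaled to the spike-ins (0.0701, at 0.20). EIF2S2 did not pass after quantile normalization or cyclic loess (limma adjusted p = 0.0743 for each), nor with an intensity trend and robust eBayes (0.103). The count was 1 without batch 2, which was EIF2AK4. Scaled to the spike-ins it was 6, of which 5 were lower and 1 was higher.

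Among 16 bZIP partners and relatives of ATF4, 4 rose and 0 fell. CREM, a cAMP-responsive factor, rose by 0.38 (limma adjusted p = 0.00131, and 0.25 without block), and by 0.34 to 0.53 over its 4 brightest probe sets. BATF, a bZIP factor of activated lymphocytes, rose by 0.35, ATF2 by 0.29 and NFE2L2, the oxidative stress factor NRF2, by 0.22 (limma adjusted p = 0.0128, 0.0174 and 0.0383, and 0.511, 0.748 and 0.85 without block). A second ATF2 probe set fell by 0.23, so that the direction of ATF2 depends on the probe set. NFE2L2 was not called when array medians were set equal (limma adjusted p = 0.0873), with an intensity trend and robust eBayes (0.0828), scaled to the spike-ins (0.245, at 0.10), or without batch 1 (0.132), batch 2 (0.0685) or batch 3 (0.116). BATF was not called without batch 1, where it differed by 0.22 (limma adjusted p = 0.073), and was 0.23 scaled to the spike-ins. ATF2 was not called without batch 2 (limma adjusted p = 0.146) or scaled to the spike-ins (0.0915, at 0.17). The count was 2 without batch 1 and also 2 without batch 2. Scaled to the spike-ins 3 of the 16 were lower and 2 were higher, so the direction of this list depends on the scaling. As deposited, the 4 of 16 called higher stand beside 6.73% of all genes called higher. That share covers genes of all levels, while 15 of these 16 lay above the median level.

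Some genes share substrates with the 10 but were not put in the lists of known ATF4 targets. They gave no calls at their brightest probe sets with batch as block. With 1.70% of all genes called lower and 6.73% called higher, lists this short can give no calls without differing from other genes. None of 18 measured glycine, folate and other carbon-unit genes passed, with a median difference of 0.01. MTHFD2L, the paralog of MTHFD2, differed by 0.26 and TYMS, which uses a folate carbon for thymidylate, by -0.21 at its brightest probe set (limma adjusted p = 0.0923 and 0.0545, and 0.716 and 0.724 without block). MTHFD2L differed by 0.13 without batch 2 (limma adjusted p = 0.623) and by 0.14 scaled to the spike-ins, and it was called at 0.41 without batch 3 (3.84e-05). TYMS was called with equal medians (limma adjusted p = 0.0495), among probe sets above the median level alone (0.0475), without batch 3 (0.0355) and, at -0.33, scaled to the spike-ins (0.00203). A second TYMS probe set fell by 0.51 (limma adjusted p = 0.000969, and 0.337 without block). None of 7 asparagine, aspartate and glutamine genes passed, with GOT1 at -0.19 and ASRGL1 at -0.17 (limma adjusted p = 0.0749 and 0.148, and 0.413 and 0.664 without block). GOT1 was called after quantile normalization (limma adjusted p = 0.024), after cyclic loess (0.0298) and, at -0.30, scaled to the spike-ins (0.00336). ASRGL1 was called without batch 3 (limma adjusted p = 0.0381) and, at -0.29, scaled to the spike-ins (0.00645). None of 6 other regulators known for serine synthesis genes passed either. MYC read 12.87, 12.73 and 13.02 with LEF1 siRNA, against 13.05, 12.88 and 13.15 with scrambled siRNA, a difference of -0.15 (limma adjusted p = 0.155, and 0.82 without block). MYC was called at -0.27 when scaled to the spike-ins (limma adjusted p = 0.00805). MAX differed by 0.15 (limma adjusted p = 0.155, and 0.888 without block), and its next brightest probe sets by -0.06 and -0.15. Scaled to the spike-ins MAX differed by 0.03.

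**Figure D5:**
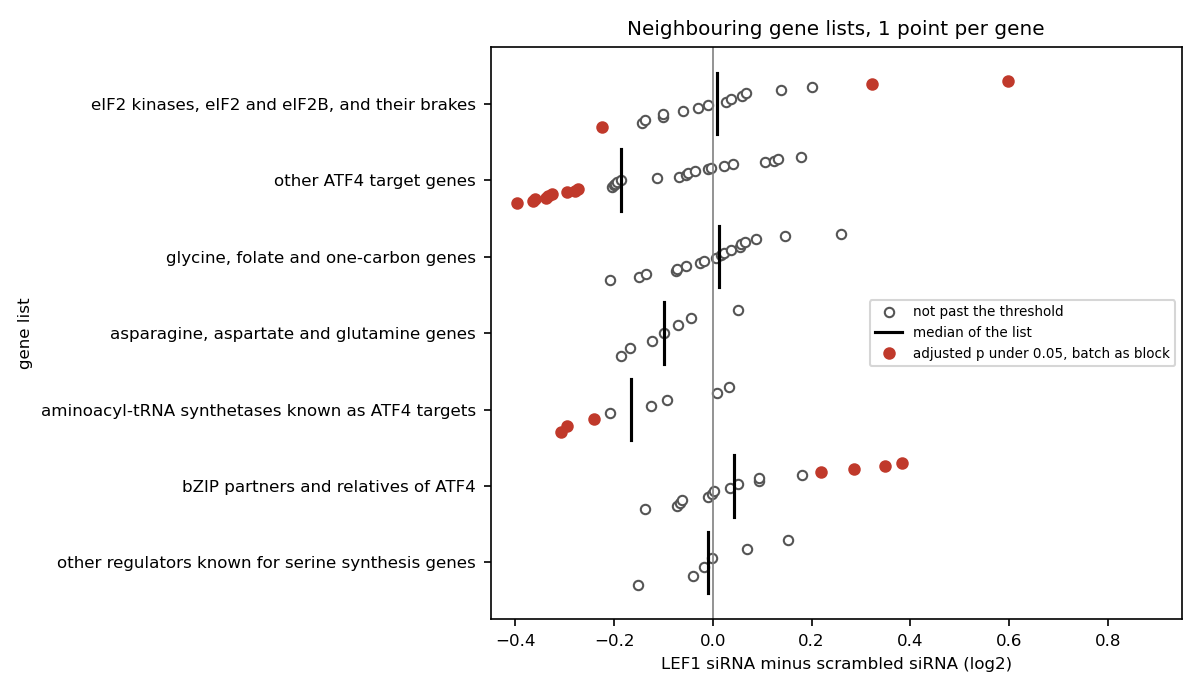
LEF1 siRNA minus scrambled siRNA difference in log2 units (horizontal axis) of the 98 measured genes of 7 lists at their brightest probe set; filled points passed the limma threshold with batch as block and bars mark list medians. The 9 filled points of other ATF4 target genes and the 3 of transfer RNA synthetases lie below 0, and the 4 of bZIP relatives above it in the values as deposited.

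Promoter sequence was then read, although the genes, the motifs and the stretches printed were chosen with the expression results known. RefSeq windows were given for 8 of the 10 genes, in 15 windows, and PSPH and SHMT2 had none here. The motifs below were searched on both strands. TGATGNAA, the composite ATF4 element, occurred in 1 of the 8 genes, ASNS, beside 4.46% of all 27305 genes with a window. CACGTG, which reads the same on both strands, occurred in ATF4 alone, beside 8.77% of all genes. TGACGTCA, the cAMP response element, and the TCF/LEF cores CTTTGAT and CTTTGAA occurred in 0 of the 8, beside 2.25%, 3.18% and 5.47% of all genes. In the lists, CTTTGAA occurred in SLC3A2, 1 of 21 other ATF4 target genes with a window, and in GARS1, 1 of 9 synthetase genes. Both were called lower. It also occurred in EIF2S1, 1 of 14 eIF2 genes, and in MTHFD2L, ALDH1L1 and SLC19A1, 3 of 17 glycine and folate genes, none of them called. CTTTGAT occurred in EIF2B4 alone, which was not called. In the list of other ATF4 target genes, 9 of 21 with a window held TGATGNAA, and in the synthetase list 6 of 9 did. CHAC1 is another gene of the first list that fell and holds it. ATF3, CEBPG, JDP2, SLC7A1 and FGF21 of that list hold it too and were not called. So do NARS1, AARS1 and IARS1 of the synthetase list, while MARS1 holds it and was not measured. SLC7A5 and SARS1 were called lower, and their windows did not hold it. CEBPB, SLC7A11, CBS and VEGFA were called lower too and gave no match, for want of the element or of a window. In the glycine and folate list 1 of 17 held it, in the eIF2 list 1 of 14 and in the asparagine, aspartate and glutamine list 1 of 7. These were MTHFD1L, PPP1R15B and GOT1, none of them called as deposited. In the bZIP list 0 of 14 held TGATGNAA, and among the other regulators 0 of 5. The stretches around it are shown for ASNS and for the genes given above with values that were called lower and hold it, each on the strand of its gene, with the 8 matching bases in capitals. Where the element runs against the gene, the capitals read as its reverse complement.
ASNS, chr7:97872458-97872487: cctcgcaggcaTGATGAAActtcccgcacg
SLC1A5, chr19:46784893-46784922: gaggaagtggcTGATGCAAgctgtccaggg
SLC1A4, chr2:64989381-64989410: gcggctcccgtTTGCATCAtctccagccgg
SLC3A2, chr11:62881725-62881748: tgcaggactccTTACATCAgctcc
GARS1, chr7:30594834-30594863: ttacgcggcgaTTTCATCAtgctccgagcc
TARS1, chr5:33440956-33440985: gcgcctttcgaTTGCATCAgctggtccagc

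All coordinates are those of GRCh38.p14. The element lay 97 bases before the start in SLC1A5, 7 before it in SLC1A4 and 33 before it in GARS1, against 37 bases after it in SLC3A2 and 2 after it in TARS1. A match is a run of letters and was not tested for binding. The counts of the ATF4 target and synthetase lists rest on lists of known targets.

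Across the arrays, the mean centred profile of the 10 genes was -0.10, -0.22 and -0.05 with LEF1 siRNA in batches 1, 2 and 3, against 0.10, 0.03 and 0.24 with scrambled siRNA. Of the 10, SHMT2 lay nearest to that profile, at a root mean square distance of 0.070 over 6 arrays, and DDIT3 farthest, at 0.290. Among 12620 other genes above the median level, the nearest were SUV39H1, a histone methyltransferase, and NUDT1, which clears oxidised nucleotides, at distances of 0.029 and 0.030. MCUR1, a regulator of mitochondrial calcium uptake, CLSPN, a replication checkpoint adaptor, and SLC25A46, a protein of the outer mitochondrial membrane, followed at 0.034, 0.035 and 0.035, where the median distance of these genes was 0.183. Their mean differences lay between -0.25 and -0.18. That follows from how they were picked, since the profile itself is lower with LEF1 siRNA. The 10 genes form the profile, so their own distances to it are a description only.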

How the data were processed

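The deposited table held log2 expression values for 54675 probe sets on 6 arrays. How the authors corrected background, normalized and summarised probes is not given in the sources used here. The log2 scale of the deposited values was read from their range, 5.45 to 14.95. Dim probe sets carry much background, which compresses their differences, and precision is limited by the number of arrays. The 62 control probe sets were left out and 54613 were tested. Gene names came from the platform annotation checked against RefSeq (GRCh38.p14). Of the probe sets, 41091 named 1 gene, 1801 several and 11721 none here.

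Group and batch came from the labels. The differences were tested over all probe sets (limma 3.58.1, R 4.3.3, two-sided, Benjamini-Hochberg adjusted, threshold 0.05), without block and with the batch number as a replicate block. Both arrays of a batch deviated together from their group means (correlations over probe sets of 0.477, 0.493 and 0.621), and the batch label gives the pairing. The paired fit called 3328 probe sets and the unpaired fit 10, with 2 residual and 12.0 prior degrees of freedom against 4 and 4.07. P-values measure only the spread between these arrays. The fits were tested on simulated data.

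Each list gene stood at its brightest probe set. Named from each list were at most 4 called genes, smallest p first, or, with no call, the 2 with the largest difference. Other list genes are named only to complete a count, to show members that were not called or to tell which genes held a motif. Members, lists and motifs were chosen with earlier results of these data known. Alternatives were the block, 4 scalings, leaving out dim probe sets, eBayes settings, and leaving out arrays or batches. Those run within the block fit, and the batch F-test, were added after seeing the data. A pseudocount does not apply to log2 values. Figures used matplotlib 3.10.9.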

Additional observations from a re-analysis of the deposited data

How the results depend on the processing

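Under every scaling the mean difference of the 10 genes at their brightest probe sets was negative in 9. Scaled to 24 poly-A spike-in probe sets, all probe sets had a median difference of -0.11 and the 10 genes one of -0.43, against -0.31 for the 10 genes as deposited. It was -0.24 with the mean over all probe sets of a gene, and ran from -0.38 to -0.20 with 1 array or batch left out. Of the alternatives for the 21 single probe sets, 223 moved the difference by less than its SD over batches and 50 by more.

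Without block, 10 probe sets passed as deposited, 23 after quantile normalization, 23 after cyclic loess, 6 with an intensity trend and robust eBayes, and 0 to 8 with 1 array or batch left out. The 0 came without LEF1 siRNA replicate 2, batch 1 or batch 2. The LEF1 difference ran from -2.94 to -2.51 in these, and did not pass without LEF1 siRNA replicate 1 or 2, scrambled siRNA replicate 1 or 3, or batch 1 or 2. With the replicate block 3328 passed, 75.2% of them higher. Quantile normalization gave a higher share of 56.1%, cyclic loess 60.1% and equal medians 66.2%. Scaling to the spike-ins called 8797, of which 971 were higher and 7826 lower. Leaving out a batch gave 1407 (batch 2) to 3880.

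List counts were 0 without block. With the replicate block they were 9 for other ATF4 targets, 3 for eIF2 genes, 3 for synthetases, 4 for bZIP relatives and 0 for the rest. Scaled to the spike-ins they were 15, 6, 6 and 5 (for bZIP relatives 3 lower and 2 higher), with 4 for glycine and folate genes, 4 for asparagine and glutamine genes and 1 for other regulators. Other ATF4 targets gave 14 after quantile normalization and after cyclic loess. With those 2 scalings asparagine and glutamine genes gave 1 each, and glycine and folate genes gave 1 with equal medians and 1 without dim probe sets. With 1 batch left out, the counts ran from 6 to 11 for other ATF4 targets, 1 to 3 for eIF2 genes, 0 to 3 for synthetases, 2 to 3 for bZIP relatives, 0 to 3 for glycine and folate genes and 0 to 1 for asparagine and glutamine genes. The cause of these moves was not tested.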
